A study of Mus musculus with 9 samples.

Results

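The mRNA decay and silencing machinery is described here through 54 genes whose products shorten the poly(A) tail, remove the cap, degrade the body of an mRNA or bring these activities to chosen mRNAs. The members were taken by gene name from a list of deadenylation, decapping, exosome, Argonaute, AU-rich element and Staufen decay genes, from which factors of nonsense-mediated mRNA decay (NMD) were left out. They were 54 of the 54325 gene symbols in the deposited table and carried 398 of its 140658 transcripts, whose counts were summed per gene. All cells were N2A, a mouse neuroblastoma line, and all were kept for 2 h with 200 nM okadaic acid, which blocks protein phosphatases. The study asked which RNAs are bound by phosphorylated UPF1 (p-UPF1), and it compared 3 groups of 3 libraries. The Input group held RNA taken without immunoprecipitation (IP), the rIgG IP group held RNA recovered with control rabbit IgG, and the p-UPF1 IP group held RNA recovered with antibody to p-UPF1. RNA of input and IP libraries alike had been cut with RNase I, and fragments of 25 to 50 nt were sequenced.

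An mRNA usually begins its decay with the loss of the poly(A) tail to the PAN2-PAN3 and CCR4-NOT nucleases, after which the decapping complex exposes it to the exonuclease XRN1, or the exosome degrades it from its other end. Argonaute proteins with TNRC6, Pumilio and tristetraprolin-type proteins and Staufen recruit this machinery to mRNAs that carry their binding sites. UPF1 is a helicase of NMD that is phosphorylated when decay is triggered, and Staufen proteins can recruit it as well. The values describe the mRNAs of these genes in RNA bound to p-UPF1, not the proteins.

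Total counts were 26023968, 25184464 and 29857955 in the input libraries, 474491, 205177 and 79010 in the rIgG IP libraries, while the libraries of the p-UPF1 IP held 5312526, 6032142 and 6246110. The 54 genes held 21944, 21359 and 23984 of these counts in input, 300, 141 and 64 in the rIgG IP, and 3933, 4931 and 4866 in the p-UPF1 IP. In CPM, counts scaled so that all library totals are equal, they held 843, 848 and 803 in input against 740, 817 and 779 in the p-UPF1 IP, so that the ranges of these groups overlapped. The rIgG IP libraries, with 632, 687 and 810 CPM, spread over a wider range than either. The smallest level that 3 counts can show was at most 0.119 CPM in input and 0.480 to 0.565 CPM in the p-UPF1 IP, but 6.32 to 38.0 CPM in the rIgG IP. In the rIgG IP, 46, 52 and 53 members had fewer than 10 counts in the respective libraries. Such floors and all counting intervals cover counting error only, because PCR copies are not independent molecules. The labels do not say that the libraries of a group came from separate cultures, so p-values measure only the spread between these libraries. Of 15 listed neuronal and sympathetic neuroblastoma markers, 11 had more than 3 counts in every input library, with a summed level of 237, 227 and 205 CPM, in which Chgb had the most counts in sum over the 3 libraries. Markers of microglia summed to at most 0.154 CPM, of astrocytes to at most 0.0769 CPM and of epithelium to at most 0.154 CPM, and those of red blood cells were at 0 in input. Fibroblast markers reached 0.871 CPM, led by Dcn with Col3a1 at 0, and oligodendrocyte markers 2.04 CPM, led by Mbp. In the IP libraries, oligodendrocyte markers had 69, 79 and 62 counts with the p-UPF1 antibody, more than the 53, 37 and 41 of the deeper input, and markers of red blood cells had 7 counts in rIgG IP replicate 1.

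Between the p-UPF1 IP and input, members moved apart in both directions. Of the 53 members with a summed count of at least 10, 15 (28.3%) were higher in the p-UPF1 IP by edgeR's quasi-likelihood test at a Benjamini-Hochberg adjusted p under 0.05, where 26.3% of all 16919 genes tested were higher. Another 25 members (47.2%) were lower, against 35.7% of all genes. Past a 2-fold change, 7 members (13.2%) were enriched and 14 (26.4%) depleted, near the 17.3% and 26.5% of all genes. The normalized levels of the 3 input and 3 p-UPF1 IP libraries did not overlap for 42 members (79.2%), against 70.1% of all genes, where chance alone gives 10% with 3 against 3 libraries. The median log2 fold change was -0.34 for the members and -0.42 for all genes, and 28 of the 53 members lay above the latter. Members ranged from -2.16 to 1.94, and the 13 that passed in neither direction lay between -0.42 and 0.23. Scaling set where 0 lay: with library totals in place of TMM factors (edgeR's trimmed mean of M-values), the median of all genes moved by 0.41 to -0.01. On that scale 21 members (39.6%) were higher and 17 (32.1%) lower, against 33.7% and 25.8% of all genes. There 11 of 53 members were enriched and 8 depleted, beside 4108 and 3160 of all 16919 genes. Log2 fold changes and CPM in the p-UPF1 IP and input are on the TMM scale, and the medians of the 4 largest roles are also given relative to the median of all genes.

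**Figure D1:**
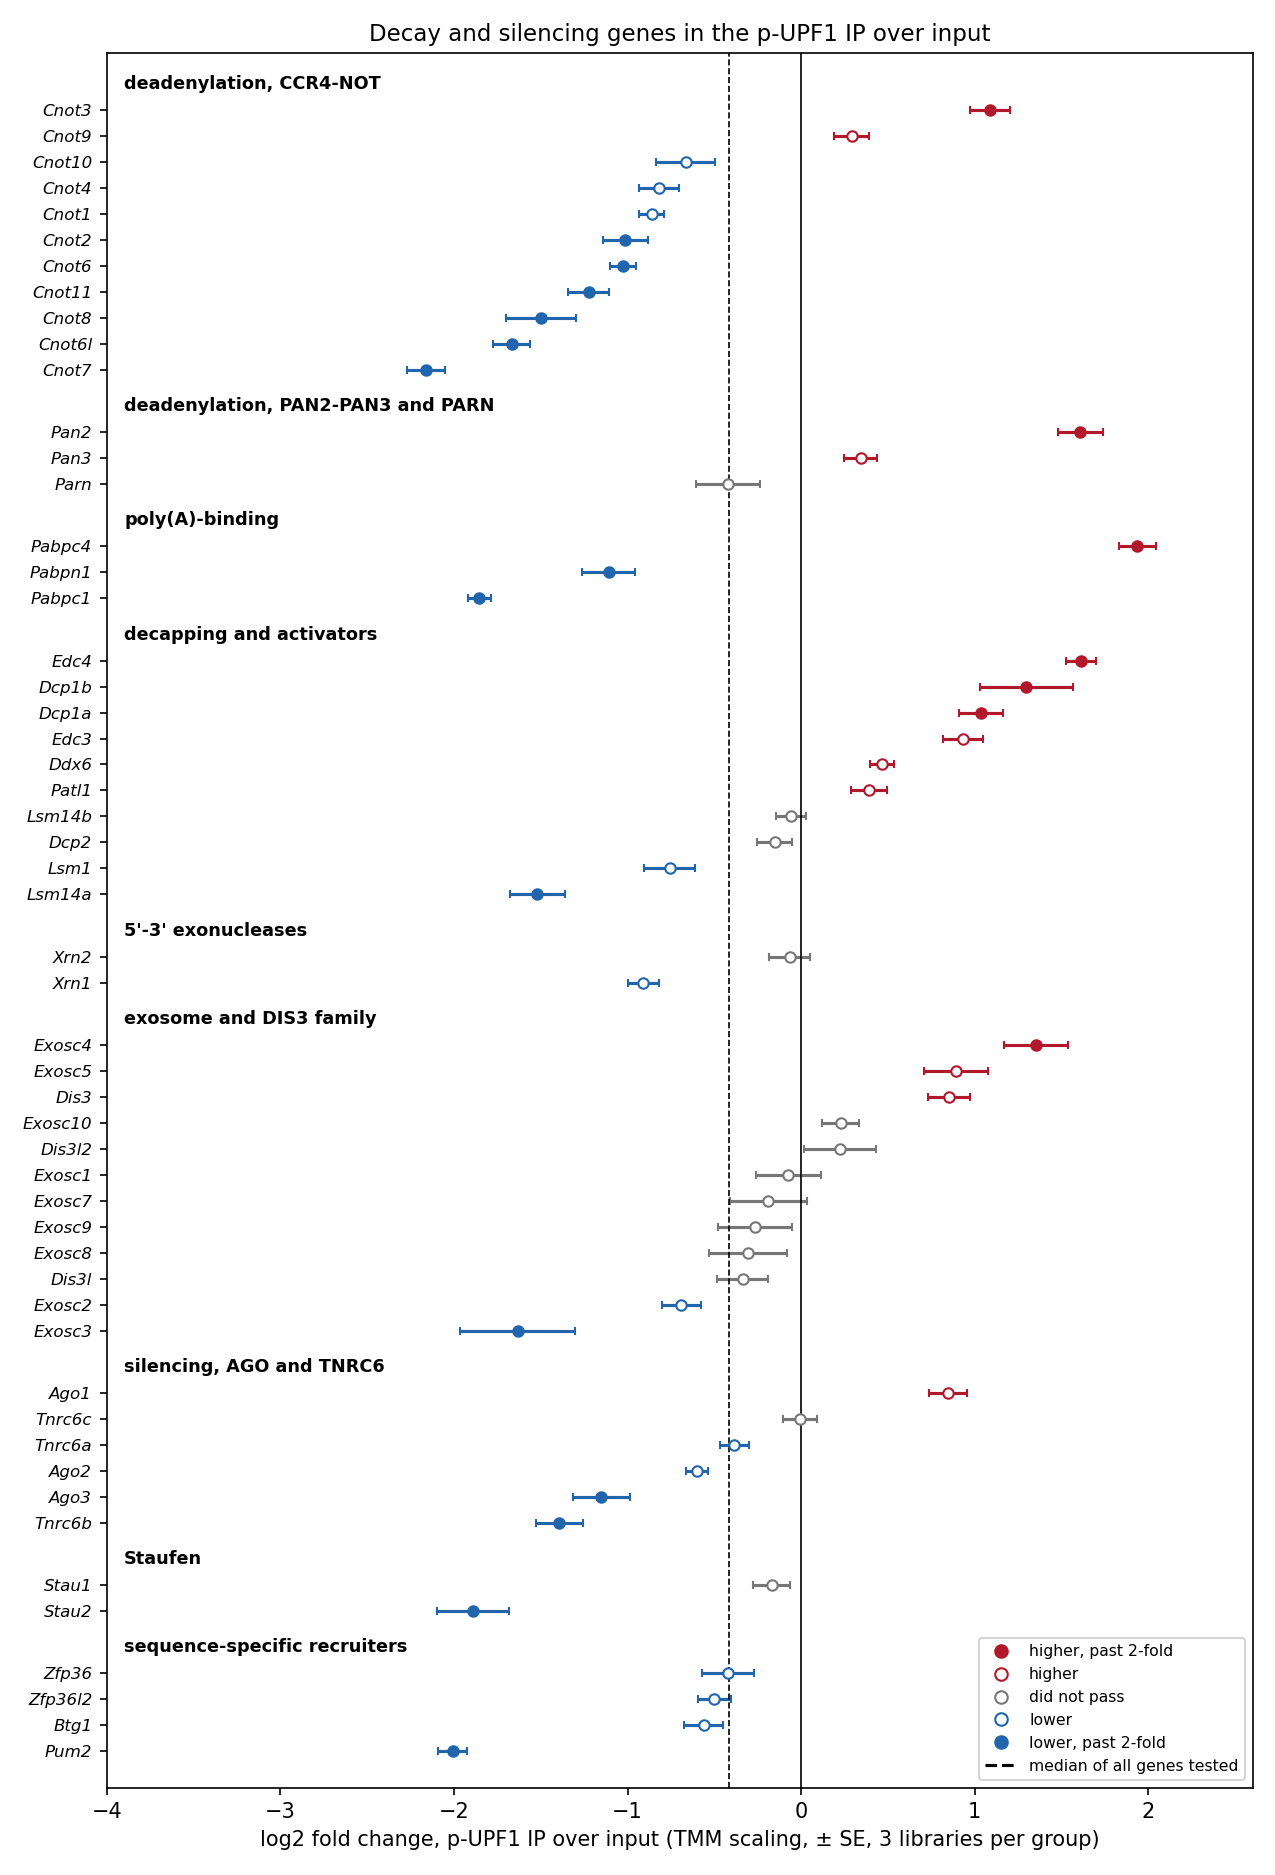
Log2 fold change (x axis, p-UPF1 IP over input, TMM scaling) of the 53 members tested, grouped by role, with bars of ± SE from 3 libraries per group. Filled points passed 2-fold, grey points passed in neither direction, the dashed line is the median of all genes tested at -0.42, and with library totals 11 members near 0, Tnrc6a among those drawn as lower, change sign.

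The CCR4-NOT complex, the main cytoplasmic deadenylase, had its mRNAs mostly lower in the p-UPF1 IP. Of 11 members 9 were lower and 2 higher, beside 35.7% lower and 26.3% higher of all genes tested. The median log2 fold change of the 11 was -1.01, which is -0.60 relative to the median of all genes. With library totals 8 members were lower, 2 higher and 1, Cnot10, passed in neither direction, beside 25.8% lower and 33.7% higher of all genes. Cnot7, a catalytic deadenylase subunit, was counted at 25.0, 26.5 and 27.9 CPM in input against 5.76, 5.22 and 6.77 CPM in the p-UPF1 IP. Each p-UPF1 IP library lay far below each input library, and the log2 fold change of -2.16 ± 0.11 (SE; edgeR adjusted p = 7.01e-08) was the lowest of all members. Its paralog Cnot8 had 209, 182 and 200 counts in input against 23, 24 and 13 in the p-UPF1 IP, with a log2 fold change of -1.50 ± 0.20. Cnot6 and Cnot6l encode the other nuclease pair of the complex. Cnot6l had 574, 617 and 638 counts in input against 47, 52 and 67 in the p-UPF1 IP, a log2 fold change of -1.67 ± 0.11, and Cnot6 gave -1.03 ± 0.08. All 4 catalytic subunits were thus past a 2-fold decrease, as were Cnot2 (-1.01) and Cnot11, which binds the scaffold with CNOT10. Of all genes tested, 26.5% were depleted. With library totals Cnot6 (-0.62), Cnot2 (-0.60) and Cnot11 (-0.82) were lower but within 2-fold, and without p-UPF1 IP replicate 1 so were Cnot6 (-0.95) and Cnot2 (-0.85). Cnot11 had 304, 277 and 347 counts in input against 37, 36 and 41 in the p-UPF1 IP (-1.23 ± 0.12). Cnot1, the scaffold that holds the complex together, was counted at 1709, 1579 and 1866 in input against 223, 301 and 296 in the p-UPF1 IP, and its log2 fold change was -0.86 ± 0.07.

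Cnot3, of the NOT module that CNOT2 also belongs to, went the other way. It had 141, 150 and 171 counts in input against 94, 99 and 89 in the p-UPF1 IP, which are 6.57 ± 0.385 CPM (SD) and 14.0 ± 1.74 CPM. The groups did not overlap, and the log2 fold change was 1.09 ± 0.11 (edgeR adjusted p = 1.35e-05). Exons of Leng1 on the opposite strand cover 13.5% of the Cnot3 transcript, and Leng1 had 20, 21 and 28 counts in input against 5, 15 and 20 in the p-UPF1 IP. Whether the counting used strand is not given in the sources used here, so counts of genes on opposite strands may not be told apart. Exons of another gene on the opposite strand overlap 15 members, and cover over 10% of the transcript in 5. Less is covered in Cnot7 (5.81%, by Zdhhc2) and Cnot9 (4.10%, by Usp37). Zdhhc2 had 623, 619 and 731 counts in input against 60, 64 and 64 in the p-UPF1 IP. Cnot9, the subunit that TNRC6 proteins contact, was the other member of the complex that was higher, at 0.29 ± 0.10 (edgeR adjusted p = 0.0263). That call was lost without input replicate 1 (adjusted p = 0.0723), without p-UPF1 IP replicate 2 (0.0634) and without a filter on low counts (0.183), and over all alternatives the adjusted p ran from 2.77e-04 to 0.183.

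Among the other deadenylases, Pan2 and Pan3 were higher and Parn passed in neither direction. Pan2, the catalytic subunit of PAN2-PAN3, stood at 6.48, 8.49 and 6.26 CPM in input against 19.8, 21.3 and 23.4 CPM in the p-UPF1 IP. The lowest p-UPF1 IP library was more than 2-fold above the highest input library, and the log2 fold change was 1.61 ± 0.13 (edgeR adjusted p = 1.76e-06). Pan3, the adaptor that tethers PAN2 to poly(A)-binding protein, gave 0.34 ± 0.10 from 394, 382 and 414 counts in input against 109, 162 and 167 in the p-UPF1 IP. Parn, a cap-binding deadenylase, had 140, 128 and 128 counts in input against 18, 38 and 30 in the p-UPF1 IP. The levels of its libraries overlapped between the groups, and its log2 fold change was -0.42 ± 0.18 (edgeR adjusted p = 0.0699). Without p-UPF1 IP replicate 2, Parn was called lower, with an adjusted p of 0.0307, and so it was without a filter on low counts (0.0277), where the alternatives ran from 0.0277 to 0.967.

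The poly(A)-binding proteins, which coat the tail and are the substrate context of deadenylases, held the member with the highest log2 fold change by deposited counts and a strongly lowered one. Pabpc1, the major cytoplasmic form, had 4021, 3876 and 4285 counts in input against 292, 340 and 338 in the p-UPF1 IP. Its level was 173 ± 1.41 CPM (SD) in input and 47.9 ± 1.44 CPM in the p-UPF1 IP, so that the difference was many times the spread within either group. The log2 fold change was -1.85 ± 0.07 (edgeR adjusted p = 5.81e-09), the smallest p among the members. Pabpn1, the nuclear form, gave -1.11 ± 0.15, and was within 2-fold with library totals (-0.70) and without p-UPF1 IP replicate 3 (-0.97). Pabpc4, an inducible cytoplasmic form, had 169, 182 and 238 input counts against 195, 240 and 213 in the shallower p-UPF1 IP libraries. These are 7.35, 8.13 and 9.56 CPM against 33.1, 33.0 and 30.0 CPM, with no overlap and a log2 fold change of 1.94 ± 0.11 (edgeR adjusted p = 1.17e-07).

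The size of the Pabpc4 change depended on a near-identical gene. Gm10110, a transcribed processed pseudogene at chr14:89896576-89898466 (minus strand, GRCm38), holds 78.5% of the 35-nt windows of the Pabpc4 transcript. It was counted at 338, 275 and 310 in input, 4, 0 and 0 in the rIgG IP, and 2, 4 and 10 in the p-UPF1 IP. Fragments shared by both genes may be assigned to either, so their counts are uncertain. In an alternative chosen after seeing the data, counts of genes that hold at least 5% of a member's windows were added to it, which gave Pabpc4 511, 459 and 554 counts in input against 198, 245 and 227 in the p-UPF1 IP. Its log2 fold change was then 0.61 ± 0.07 (edgeR adjusted p = 4.60e-05), still higher in the p-UPF1 IP but within 2-fold and no longer the highest member, and 6 members in place of 7 were enriched. Of the 54 members, 7 had such a gene and 30 shared no window with any other gene. Cnot8 moved to -1.45, while Pabpc1 (-1.85), Cnot3 (1.09) and Pabpn1 (-1.11) gave the same value with and without the addition.

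The first 120 bases of the Pabpc4 coding sequence are shown with the matching bases of the pseudogene, to show how closely the latter copies Pabpc4. They are from GENCODE M21, for the Pabpc4 transcript at chr4:123282911-123298832 (plus strand) and for the pseudogene at the place given above. Capitals mark bases that differ from Pabpc4, which are 1 of 120 in Gm10110.
Pabpc4: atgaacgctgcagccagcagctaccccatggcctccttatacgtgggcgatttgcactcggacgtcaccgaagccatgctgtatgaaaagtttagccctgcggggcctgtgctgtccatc
Gm10110: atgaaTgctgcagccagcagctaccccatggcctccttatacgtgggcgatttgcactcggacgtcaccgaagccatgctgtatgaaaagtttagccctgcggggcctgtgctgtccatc

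Within a library, a ratio of paralogs needs no scaling between libraries, and it was taken for pairs chosen after their values were seen, with no test. Pabpc4 had 0.0420, 0.0470 and 0.0555 counts per count of Pabpc1 in input against 0.668, 0.706 and 0.630 in the p-UPF1 IP. With the counts of near-identical genes added, the ratio was 0.127, 0.118 and 0.129 in input against 0.678, 0.718 and 0.670 in the p-UPF1 IP. In both forms every p-UPF1 IP library lay above every input library.

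Decapping factors leaned toward the p-UPF1 IP, with 6 of 10 higher, 2 lower and 2 in neither direction. Of all genes tested, 26.3% were higher and 35.7% lower. With library totals 8 of the 10 were higher and 1 lower, beside 33.7% and 25.8% of all genes. The median log2 fold change of the 10 was 0.43, which is 0.84 relative to the median of all genes. Edc4, a scaffold that couples decapping to decay of the exposed end, was counted at 7.44, 6.52 and 7.11 CPM in input against 21.9, 21.1 and 21.4 CPM in the p-UPF1 IP. The libraries of each group lay close together and the groups far apart, and the log2 fold change was 1.61 ± 0.09 (edgeR adjusted p = 9.25e-08). The paralogs Dcp1a and Dcp1b encode activators of the decapping enzyme, and both were enriched. Dcp1a had 108, 111 and 119 counts in input against 58, 62 and 80 in the p-UPF1 IP (log2 fold change 1.04 ± 0.13), and was within 2-fold without p-UPF1 IP replicate 3 (0.95). Dcp1b was counted less, at 39, 25 and 28 in input against 15, 25 and 26 in the p-UPF1 IP, and gave 1.30 ± 0.27 (edgeR adjusted p = 0.00184). Edc3, another enhancer of decapping, gave 0.93, the helicase gene Ddx6 0.47 ± 0.07 and Patl1, a scaffold, 0.39, all 3 higher within 2-fold. Exons of Clk3 on the opposite strand, counted at 92, 95 and 114 in input against 62, 60 and 56 in the shallower p-UPF1 IP, cover 22.5% of the Edc3 transcript, so the value of Edc3 is uncertain. Dcp2, the decapping enzyme itself, passed in neither direction, with 285, 277 and 350 counts in input against 72, 77 and 87 in the p-UPF1 IP. Its log2 fold change was -0.15 (edgeR adjusted p = 0.215), and 0.26 (0.0379) with library totals, in alternatives that ran from 0.0379 to 0.719.

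The members of the decapping group that were lower encode LSM proteins. Lsm14a, an RNA-binding component of P-bodies, had 13.4, 16.4 and 18.0 CPM in input against 4.92, 6.59 and 5.08 CPM in the p-UPF1 IP, without overlap. The log2 fold change was -1.52 ± 0.16 (edgeR adjusted p = 1.27e-05). Lsm1, a subunit of the ring that binds deadenylated ends, gave -0.76, a call lost with library totals. The paralog Lsm14b stood at 12.0 ± 0.294 CPM (SD) in input and 11.5 ± 0.433 CPM in the p-UPF1 IP, groups that overlapped, and the sign of its log2 fold change turned from -0.06 to 0.35 with library totals, where it was called higher (edgeR adjusted p = 0.00984, in alternatives from 0.00984 to 0.95). Per count of Lsm14a, Lsm14b had 0.896, 0.712 and 0.683 counts in input against 2.24, 1.77 and 2.33 in the p-UPF1 IP.

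Of the exonucleases that follow decapping, Xrn1, which degrades cytoplasmic mRNA, was lower, with 338, 336 and 369 counts in input against 49, 54 and 57 in the p-UPF1 IP. Its level fell from 14.8 ± 0.156 CPM (SD) to 7.92 ± 0.458 CPM, with no overlap, and the log2 fold change was -0.91 ± 0.09 (edgeR adjusted p = 9.54e-06). Xrn2, its nuclear relative, had 16.7 ± 0.582 CPM in input and 15.9 ± 3.00 CPM in the p-UPF1 IP. These groups overlapped, and the log2 fold change was -0.07 (edgeR adjusted p = 0.638), or 0.34 (0.0312) with library totals, in alternatives from 0.0312 to 0.855.

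The exosome and DIS3 family was the group with the most members in neither direction, 7 of 12, beside 3 higher and 2 lower. Of all genes tested, 26.3% were higher and 35.7% lower. The median of the family was -0.13, which is 0.29 relative to the median of all genes. With library totals 5 of the 12 were higher and 1 lower, beside 33.7% and 25.8% of all genes. Exosc4, of the ring, had 77, 96 and 71 counts in input against 62, 63 and 55 in the p-UPF1 IP, which are 3.50 ± 0.730 CPM (SD) and 8.97 ± 1.41 CPM. All p-UPF1 IP libraries were above all input libraries, with a log2 fold change of 1.35 ± 0.18 (edgeR adjusted p = 9.69e-05). Exons of Oplah on the opposite strand, counted at 9, 9 and 12 in input against 3, 4 and 7 in the p-UPF1 IP, cover 13.1% of its transcript. Exosc3, of the cap that contacts RNA, was at the other end, with 41, 36 and 43 counts in input against 4, 3 and 4 in the p-UPF1 IP. These low counts gave -1.63 ± 0.33 (edgeR adjusted p = 0.00158). Dis3, the processive nuclease of the nuclear exosome, rose from 162, 124 and 173 counts in input to 69, 86 and 84 in the shallower p-UPF1 IP, with a log2 fold change of 0.85 ± 0.12. Exosc5 gave 0.89 ± 0.18, and Exosc2 -0.69 ± 0.11, a call lost with library totals. Exosc10, the other nuclear exosome nuclease, gave 0.23 (edgeR adjusted p = 0.0861). It was called higher without p-UPF1 IP replicate 3 (0.37, adjusted p = 0.0116), with library totals (0.64) and with edgeR's own filter on low counts (0.25), and its adjusted p ran from 0.00124 to 0.375 over the alternatives. Dis3l and Dis3l2, cytoplasmic nucleases of the family, gave -0.34 and 0.22, and Dis3l2 was called higher with library totals (0.63, edgeR adjusted p = 0.0249, in alternatives from 0.0249 to 0.691). The other 4, Exosc1, Exosc7, Exosc8 and Exosc9, lay between -0.31 and -0.07. Exons of Ccna2 on the opposite strand, with 297, 279 and 407 input counts against 31, 28 and 29, cover 23.4% of the Exosc9 transcript. With library totals the signs of Dis3l and of these 4 turned positive.

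**Figure D2:**
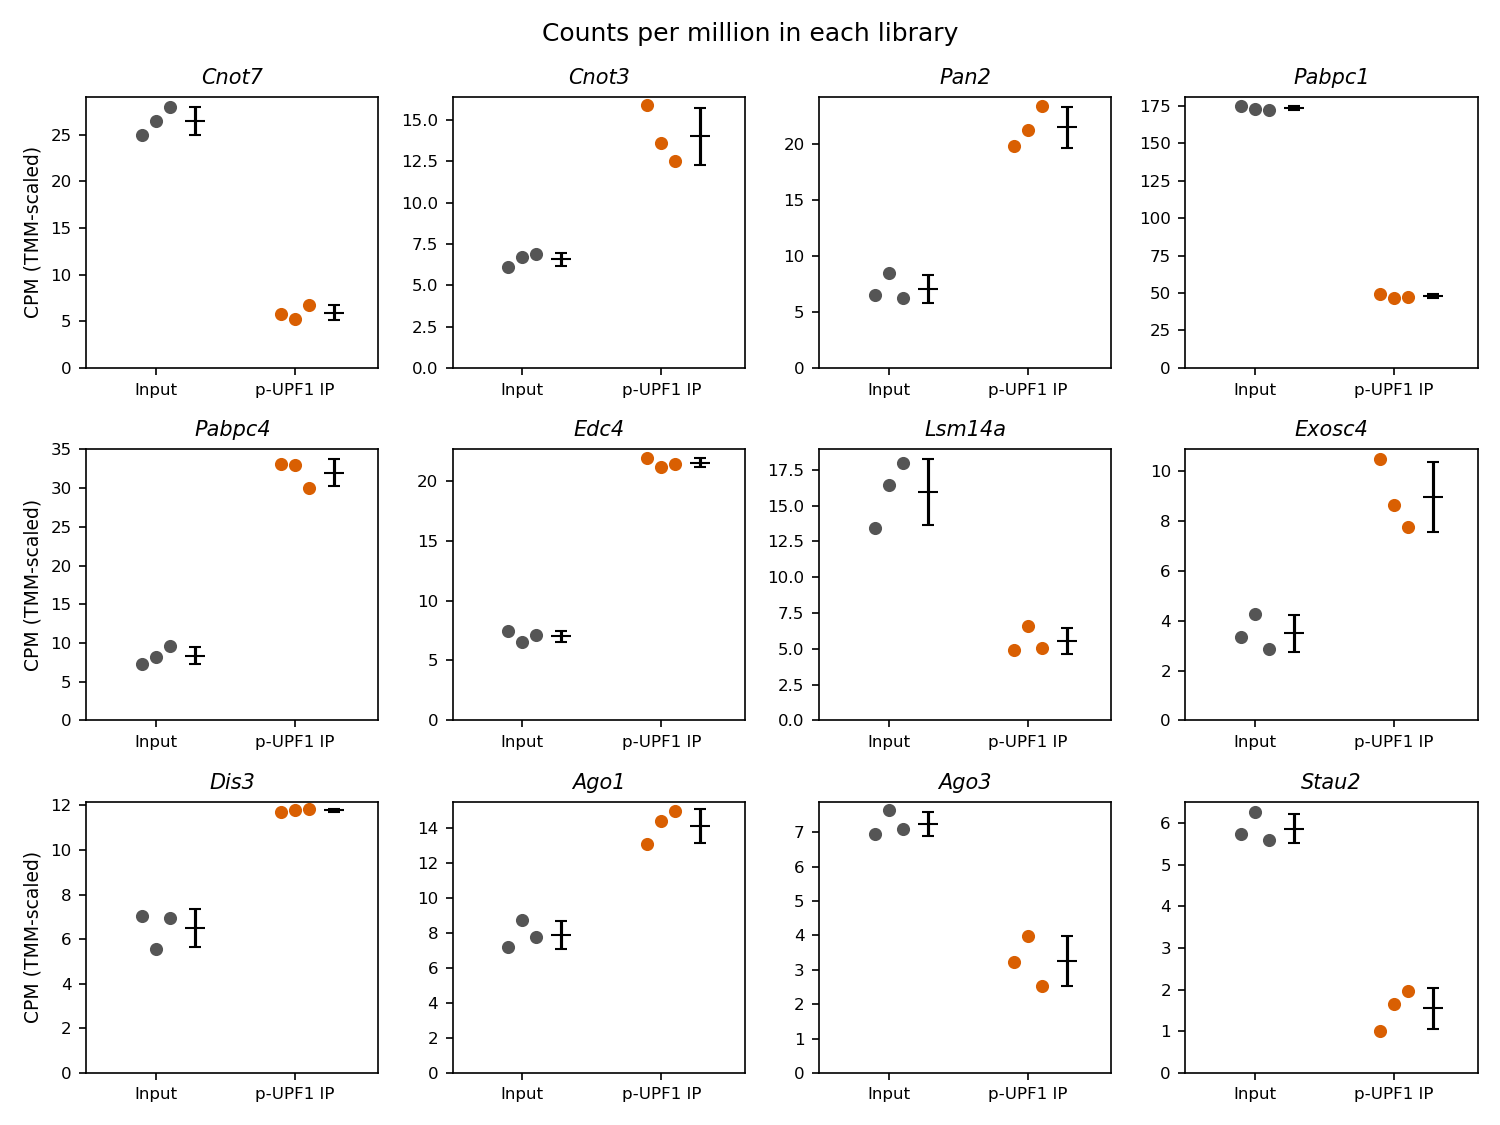
CPM (y axis, TMM-scaled) of 12 members in each of the 3 input and 3 p-UPF1 IP libraries, 1 point per library, with the mean ± SD drawn beside the points. The 12 were picked from members called higher or lower, all of which have groups that do not overlap, as do 70.1% of all genes tested. The y axes differ between panels.

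In silencing, where Argonaute proteins carry small RNAs and TNRC6 proteins link them to deadenylases, 1 of 6 members was higher, 4 lower and 1 in neither direction. Of all genes tested, 26.3% were higher and 35.7% lower. The median of the 6 members, -0.49, was -0.08 relative to the median of all genes, with members on both sides of the latter. With library totals 2 of the 6 were higher and 2 lower, beside 33.7% and 25.8% of all genes. Ago1 had 7.17, 8.75 and 7.75 CPM in input against 13.1, 14.4 and 14.9 CPM in the p-UPF1 IP. No p-UPF1 IP library reached down to the input range, and the log2 fold change was 0.84 ± 0.11 (edgeR adjusted p = 6.38e-05). Ago3, whose gene lies beside Ago1 on the same strand, had 6.96, 7.64 and 7.11 CPM in input against 3.22, 3.98 and 2.54 CPM in the p-UPF1 IP, and its log2 fold change was -1.15 ± 0.17 (edgeR adjusted p = 1.47e-04). It was lower but within 2-fold with library totals (-0.74) and without p-UPF1 IP replicate 3 (-0.96). Neither gene's groups overlapped. Ago1 had 1.03, 1.15 and 1.09 counts per count of Ago3 in input against 4.05, 3.62 and 5.89 in the p-UPF1 IP. Ago2, the Argonaute that can cut its target, was the most counted of the 3, at 2007, 1945 and 2171 in input against 329, 416 and 420 in the p-UPF1 IP. It gave -0.60 ± 0.06, and -0.20 (edgeR adjusted p = 0.0516) with library totals, the largest adjusted p of its alternatives (1.24e-16 the smallest).

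Tnrc6b was the lowest of the silencing genes, with 26.3, 29.5 and 25.1 CPM in input against 7.63, 11.5 and 11.3 CPM in the p-UPF1 IP. The log2 fold change was -1.39 ± 0.14 (edgeR adjusted p = 8.08e-06), or -0.99 with library totals, and the groups did not overlap. Tnrc6a gave -0.38 ± 0.09, and 0.02 with library totals, the only called member whose sign turned with that scaling. Tnrc6c had a mean of 15.1 CPM in both groups, with SDs of 0.951 in input and 1.45 in the p-UPF1 IP, and was called higher with library totals (0.40, edgeR adjusted p = 0.0129, in alternatives from 0.0129 to 0.957). Per count of Tnrc6b, it had 0.601, 0.525 and 0.558 counts in input against 2.11, 1.36 and 1.19 in the p-UPF1 IP.

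The last 120 bases of the Ago1 and Ago3 coding sequences are shown because these neighbouring paralogs moved in opposite directions. They are from GENCODE M21, for the transcripts at chr4:126435012-126468583 (Ago1) and chr4:126332732-126429556 (Ago3), both on the minus strand of GRCm38, and capitals mark the 21 bases that differ from Ago1, 17 of them at position 3 of a codon.
Ago1: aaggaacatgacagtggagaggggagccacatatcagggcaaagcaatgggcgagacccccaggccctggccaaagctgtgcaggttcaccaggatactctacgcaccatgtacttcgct
Ago3: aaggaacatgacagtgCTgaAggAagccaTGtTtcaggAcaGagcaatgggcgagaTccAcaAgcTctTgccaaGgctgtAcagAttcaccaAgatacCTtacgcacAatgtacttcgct
At position 3 of its codons the whole coding sequence was 65.9% G or C in Ago1 and 42.7% in Ago3.

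The Staufen proteins bind double-stranded stretches of mRNA, and STAU1 and STAU2 can both recruit UPF1. Stau2 had 132, 140 and 139 counts in input against 6, 12 and 14 in the p-UPF1 IP. Its level fell from 5.86 ± 0.351 CPM (SD) to 1.55 ± 0.486 CPM, with a log2 fold change of -1.89 ± 0.21 (edgeR adjusted p = 2.05e-05), among the 4 lowest of the members. Stau1 had 206, 216 and 247 counts in input against 55, 58 and 58 in the p-UPF1 IP. The levels of its groups overlapped, and its log2 fold change was -0.17 (edgeR adjusted p = 0.201), or 0.24 (0.0914) with library totals, in alternatives from 0.0914 to 0.566. The counts of Stau1 per count of Stau2 were 1.56, 1.54 and 1.78 in input against 9.17, 4.83 and 4.14 in the p-UPF1 IP. The latter rest on few Stau2 counts, and the cause of their spread was not tested.

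Of the 5 genes grouped as sequence-specific recruiters and Btg1, 4 could be tested and all 4 were lower, but with library totals only Pum2 was. Of all genes tested, 35.7% were lower, or 25.8% with library totals. Pum2, which binds Pumilio elements, was counted at 1265, 1113 and 1326 in input against 79, 89 and 97 in the p-UPF1 IP. These are 55.0, 49.7 and 53.2 CPM against 13.4, 12.2 and 13.7 CPM, without overlap, and the log2 fold change of -2.01 ± 0.09 (edgeR adjusted p = 1.92e-08) was second to that of Cnot7. Zfp36, which encodes the AU-rich element binder tristetraprolin, gave -0.42 ± 0.15 (edgeR adjusted p = 0.0305) from 144, 133 and 147 counts in input against 30, 27 and 34 in the p-UPF1 IP. Its value is -0.01 relative to the median of all genes, and the call was lost in 8 of 14 alternatives, among them leaving out any input library (adjusted p 0.0536 to 0.0884), p-UPF1 IP replicate 2 (0.224) or replicate 3 (0.0506), and its adjusted p ran from 0.0175 to 0.941. Its relative Zfp36l2 (-0.50 ± 0.09) and Btg1 (-0.56 ± 0.11), whose product binds the CNOT7 and CNOT8 proteins, lay close to the median of all genes too. Zfp36l1 had 1, 0 and 1 counts in input, 0 in every rIgG IP library and 0, 1 and 0 in the p-UPF1 IP, and was not tested.

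Against the rIgG IP, which shares its p-UPF1 IP libraries with the comparison above, 8 of 53 members (15.1%) were higher in the p-UPF1 IP and 1 (1.89%) lower by edgeR, where 17.9% and 5.59% of the 12033 genes tested were. The shallow rIgG IP limited this comparison, since 5 members had 0 counts in all of its libraries, 10 had 1 to 3 in sum and only 15 had at least 10. Pabpc4 had 1, 4 and 2 rIgG IP counts beside its 195, 240 and 213 in the p-UPF1 IP, with a log2 fold change of 2.05 ± 0.47 (edgeR adjusted p = 0.00206), and 1.33 (0.00829) with the counts of near-identical genes added. Edc4 had 2, 1 and 2 rIgG IP counts and gave 1.96 ± 0.51 (edgeR adjusted p = 0.00610). Cnot3 and Pan2, with 4 and 8 rIgG IP counts in sum, gave 1.66 and 1.30, and Ddx6, with 14, 5 and 3, gave 1.26. The fitted values of all genes tested had a median of 0.89, or 0.17 with the 2324 genes at 0 in every rIgG IP library placed at their bound against 3 counts over the group. Relative to the former, Pan2 was at 0.41 and Ddx6 at 0.38. In Pabpc4, Edc4, Cnot3, Pan2 and Ddx6, picked from the members called higher, each p-UPF1 IP library lay above each rIgG IP library. In all of these but Ddx6, rIgG IP libraries held fewer than 3 counts, which are not told from 0, so the order is uncertain. Dis3 was at 0 in all rIgG IP libraries, and its p-UPF1 IP level was at least 3.44-fold higher than 3 counts over that group would give. Exosc4 and Lsm14b had 1 and 2 rIgG IP counts, which are under the 3 counts told from 0. By pooled library totals their p-UPF1 IP levels were 10.2 and 13.3 CPM, above the 3.95 CPM of 3 counts over the rIgG IP. The 95% exact counting interval of the ratio was 1.38 to 308 for Exosc4 and 1.38 to 41.9 for Lsm14b. Pabpc1, with 65, 23 and 12 rIgG IP counts, was the member that was lower, at -1.16 ± 0.21 (edgeR adjusted p = 1.45e-04).

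These counts of members depended on single libraries. Without rIgG IP replicate 1, the deepest of its group, 3 members were higher, beside 1309 of 11933 genes. Without replicate 3, the shallowest, 4 were, beside 1585 of 12014 genes. Without replicate 2 or 3 of that group, 2 members were lower, beside 584 of 11988 and 711 of 12014 genes. With DESeq2 in place of edgeR, 4 members were higher and 6 lower, so that neither count had a fixed value at this depth. The counts over all 12033 genes moved too, to 1214 higher and 967 lower with DESeq2 from 2158 and 673 with edgeR. No fold is given for Exosc3, Exosc8 and Zfp36l1, which were at 0 in the rIgG IP and at or under the level of 3 rIgG IP counts in the p-UPF1 IP. Parn, also at 0, did not pass (edgeR adjusted p = 0.0543), and its p-UPF1 IP level was 1.24-fold that of 3 rIgG IP counts.

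Between the rIgG IP and input, 0 of 53 members passed edgeR's test in either direction, where 0.584% of the 16280 genes tested were higher and 0.313% lower. At an unadjusted p under 0.05, 13 of 53 members (24.5%) were lower and 0 higher, where 9.77% of all genes tested were lower and 420 of 16280 higher. DESeq2 called 0 members as well, and 4 of 53 had an unadjusted p under 0.05, beside 1506 of 16280 genes. The input libraries are those of the first comparison. With so few rIgG IP counts, even large differences could be missed in most members.

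The members were also compared by transcript, since the deposited counts are per transcript. Of the 398 transcripts, the annotation calls 179 protein-coding, 113 retained introns, 63 processed transcripts and 43 targets of NMD. Of the members' counts, 19.2%, 20.9% and 21.8% fell on transcripts annotated for NMD or as retained introns in input, against 15.2%, 14.7% and 16.5% in the p-UPF1 IP. By summed counts every p-UPF1 IP library was thus below every input library, with a difference of -5.15 percentage points between the means. A two-sided exact permutation test gave p = 0.1, the smallest value that 3 against 3 libraries allow. The rIgG IP libraries had 16.3%, 13.5% and 23.4%, which spanned the ranges of both other groups (exact p = 0.8 against the p-UPF1 IP and 0.4 against input).

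Most of the difference between p-UPF1 IP and input rested on 1 transcript of Cnot1 annotated for NMD (ENSMUST00000213006.1), picked after its values were seen. It had 1085, 912 and 1609 counts in input against 0, 0 and 72 in the p-UPF1 IP, and only 0.430% of its 35-nt windows were found in no other transcript of its gene. With that transcript removed, an alternative chosen after seeing the data, the share was 14.9%, 17.4% and 16.1% in input against 15.2%, 14.7% and 15.3% in the p-UPF1 IP. These groups overlapped, and their means differed by -1.11 points. As a mean over genes, in which Cnot1 weighs like any other member, the share with that transcript kept was 21.3%, 21.5% and 24.4% in input against 18.2%, 18.5% and 16.2% in the p-UPF1 IP, without overlap. Over the counts of all genes the share moved the other way, from 18.9%, 18.0% and 20.5% in input to 29.0%, 31.2% and 30.7% in the p-UPF1 IP.

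Of 242 member transcripts tested by edgeR, 17 were enriched and 47 depleted relative to input. They belonged to 13 (24.5%) and 29 (54.7%) of 53 members, where 18.4% and 33.4% of the 16469 genes with a tested transcript had one, and 9 members had both. With replicate number as a block, 1 member had an enriched transcript and 6 a depleted one, beside 1004 and 1357 of these genes. With library totals 24 transcripts of 17 members were enriched and 33 of 24 members depleted. On that scale 4214 and 3821 of the 16469 genes had such a transcript. Many of these transcripts share most of their sequence with others of their gene. A median of 4.60% of the 35-nt windows of an enriched transcript, and 11.1% of a depleted one, was found in no other transcript of its gene, and 12 of the 17 and 21 of the 47 had less than 10% of their own. In 9 of the 17 and 31 of the 47, every library of 1 group was at 0. Exosc10, which passed in neither direction by its summed counts, had its most-counted transcript (ENSMUST00000173154.7) at 283, 194 and 162 in input and 0 in the p-UPF1 IP. Another (ENSMUST00000076022.6, protein-coding) was at 0 in input against 74, 96 and 75 in the p-UPF1 IP. Only 1.13% and 1.28% of the windows of this pair were their own, so the counts may have been assigned to either. The first of the pair was picked after its values were seen. With the block neither of the pair passed (edgeR adjusted p = 0.0678 and 0.0582). The most-counted Pan2 transcript (ENSMUST00000218315.1, 0% its own) was at 0 in input against 76, 93 and 128 in the p-UPF1 IP. That of Exosc4 (ENSMUST00000230512.1, 2.01%) went the other way, from 72, 79 and 66 in input to 0, although Exosc4 was higher by summed counts.

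For a few members the transcript counts rest on sequence of their own. Transcripts were fitted apart from genes, with TMM factors of their own, so their fold changes are not on the scale of the genes. Values could thus differ between the fits on nearly the same counts. The Cnot9 transcript ENSMUST00000087215.6 (75.4% its own) gave -0.02 (edgeR adjusted p = 0.908), where the gene gave 0.29. For Dcp2, ENSMUST00000025350.9 (96.7%) gave -0.44 (edgeR adjusted p = 0.0520), where the gene gave -0.15. The main Ago3 transcript (ENSMUST00000069097.12), with 90.4% of its windows its own, had 142, 147 and 143 counts in input against 18, 29 and 15 in the p-UPF1 IP (log2 fold change -1.31, edgeR adjusted p = 0.0227). The main Tnrc6b transcript (ENSMUST00000067689.8; 66.1% its own) had 485, 580 and 479 against 44, 69 and 49 (-1.77, edgeR adjusted p = 0.00210). The main Cnot6l transcript (ENSMUST00000155901.7; 62.1%) had 298, 323 and 301 against 21, 18 and 31 (-2.22, edgeR adjusted p = 0.00218). All 3 were depleted, and the Ago3 transcript was picked after its values were seen. In Ago1, the transcript ENSMUST00000097888.9 (51.9%) had 151, 192 and 191 counts in input against 77, 104 and 106 in the p-UPF1 IP, and was higher at 0.59 (edgeR adjusted p = 0.0386). In Dcp1b, a retained-intron transcript (ENSMUST00000149651.7; 58.4%) was the most counted over input and p-UPF1 IP libraries together, with 6, 13 and 10 counts in input against 13, 22 and 21 in the p-UPF1 IP, and was enriched at 2.40 (edgeR adjusted p = 0.0168). In input alone the protein-coding Dcp1b transcript ENSMUST00000073909.5, named after its values were seen, had more counts in sum, at 26, 12 and 16. It had 2, 3 and 5 in the p-UPF1 IP and did not pass (-0.95, edgeR adjusted p = 0.306). Only 1.63% of its windows were its own, so its counts may belong to other transcripts of Dcp1b. With replicate number as a block, the calls of the Ago3, Ago1 and retained-intron Dcp1b transcripts were lost (edgeR adjusted p = 0.110, 0.158 and 0.139). Those of Tnrc6b and Cnot6l were kept.

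Members that were higher in the p-UPF1 IP had transcripts richer in G and C. GC content was examined after the fold changes were seen, and no test was made of it. In the most-counted protein-coding transcript its median was 51.6% for the 15 higher members, 50.6% for the 13 in neither direction and 46.8% for the 25 lower ones, and the ranges overlapped widely (43.4% to 61.1% and 37.6% to 58.3% for higher and lower members). Across the 53 members, GC content and log2 fold change had a Pearson coefficient of 0.54 and a Spearman coefficient of 0.51. The same held in direction across all 12602 genes with a tested protein-coding transcript, with 0.36 and 0.41, so the relation was not particular to the members. These coefficients are across genes, which share libraries and are not independent. Cnot7 and Cnot6l, both depleted, had 39.8% and 37.6% GC, and Edc4, Dcp1b and Cnot3, all enriched, had 55.5%, 56.5% and 57.3%. Pabpn1, depleted with 58.3%, and Dis3, higher with 43.6%, lay off this trend. The part of GC content in the fold changes was not tested.

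**Figure D3:**
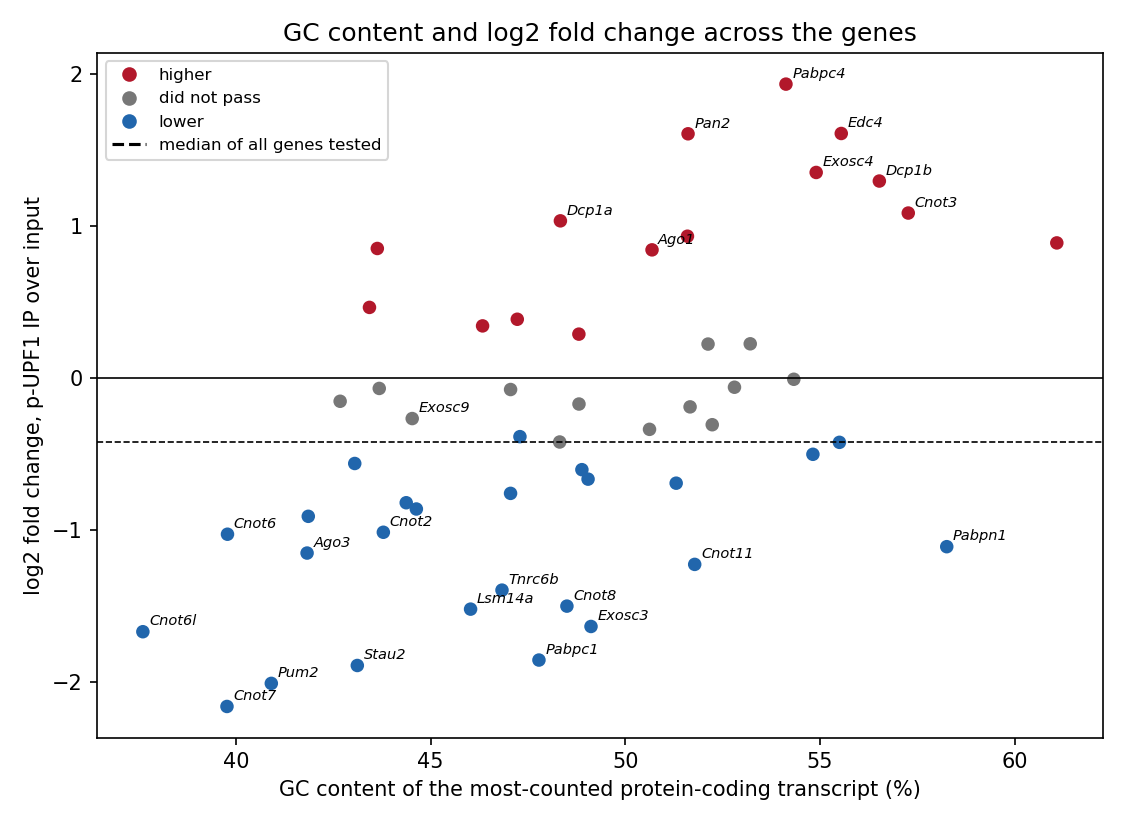
GC content of the most-counted protein-coding transcript (x axis, %) and log2 fold change of the p-UPF1 IP over input (y axis, TMM scaling) for 53 members, 1 point per gene, coloured by call at adjusted p under 0.05. The Pearson coefficient is 0.54 across the members, the dashed line is the median of all genes tested at -0.42, and with library totals all points move up by 0.41 and 11 of them change sign.

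Length, taken from the same most-counted protein-coding transcripts as GC content, was weakly related to the fold change. For Cnot1 this transcript had 2469 nt and a 3′ UTR of 0 nt, while another protein-coding Cnot1 transcript had 8390 nt. The lengths thus depend on the transcript chosen. Across the members, the Pearson and Spearman coefficients were -0.14 and -0.01 for transcript length, 0.10 and 0.15 for coding length, and -0.21 and -0.19 for the length of the 3′ untranslated region (UTR). Across all genes they were 0.10 and 0.21 for transcript length and 0.02 and 0.12 for 3′ UTR length, both of the opposite sign to the members, and 0.13 and 0.21 for coding length. The longest 3′ UTRs among members belonged to Ago3 (12745 nt), Tnrc6b (11612 nt) and Ago2 (11067 nt), all lower in the p-UPF1 IP, and Dcp2 followed with 7243 nt and no call. These 4 were picked by length after the fold changes were seen.

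The members differ widely in abundance. Per length, as counts of each transcript divided by its length, summed per gene and scaled to the same sum in each library, Pabpc1 had a mean of 65.9 in input (53.2 to 83.3), and its lowest library was above the highest of every other member. Cnot7 (13.4), Pum2 (12.9) and Cnot1 (12.8) came next and did not differ beyond their spread, followed by Cnot6 (7.76) and Ago2 (7.52), whose ranges also overlapped. The median member stood at 2.04, and Dcp1b (0.377) and Zfp36l1 (0.0345) were the lowest. Pabpc4 (2.07) was thus far below Pabpc1, and Ago1 (0.873) below Ago3 (1.53) and Ago2. The order depends on the length assigned to each gene. With the longest transcript in its place, Pabpc1 stayed first at 38.2, but Cnot7 came seventh at 4.37 and Ago3 (0.298) was below Ago1 (0.702).

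Another 63 genes of mRNA decay and silencing outside the member list were counted for comparison. Of 62 tested, 21 were higher and 29 lower in p-UPF1 IP than in input libraries, 9 were enriched and 17 depleted, beside 26.3%, 35.7%, 17.3% and 26.5% of all genes, and their median log2 fold change was 0.02. Over the rIgG IP, 15 of 60 were higher and 3 lower, beside 17.9% and 5.59% of all genes, and in the rIgG IP over input 0 of 61 passed in either direction by edgeR. The genes named from this list were chosen after their values were seen. Gigyf1, whose product represses translation with the cap-binding protein EIF4E2, had 3.70, 3.44 and 3.29 CPM in input against 21.2, 19.2 and 18.5 CPM in the p-UPF1 IP (log2 fold change 2.49 ± 0.10). Skiv2l, the helicase that feeds mRNA to the cytoplasmic exosome, gave 2.32 ± 0.15, and Mov10, a helicase of silencing, 1.65 ± 0.14. Their libraries did not overlap between the groups. The lowest were Tob1, an adaptor of CCR4-NOT, at -2.90 ± 0.15 and Lsm2 at -2.80 ± 0.26. Among the other depleted genes was Elavl1, an AU-rich element binder that stabilizes mRNAs, at -2.07 ± 0.10.

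Exosc6, the ring subunit of the exosome outside the member list, had 0 counts in every input and rIgG IP library and 130, 119 and 131 in the p-UPF1 IP, and it is among the 21 genes counted as higher. Its single exon at chr8:111056339-111057664 lies wholly inside the last exon of Aars (chr8:111055019-111057664), on the same strand. Aars had 1751, 1752 and 1902 counts in input, 29, 17 and 6 in the rIgG IP, and 1010, 1265 and 1317 in the p-UPF1 IP. Counts of this pair may not be told apart, and no fold is given.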

How the data were processed

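RNA fragments from 9 libraries were measured. The deposited table holds estimated counts per transcript, which the authors made with Salmon 0.13.1 and which stand as whole numbers in the table. The submitters' processing notes also name bcl2fastq 2.19.0, fastp, STAR 2.7.0f and DESeq2 1.22.1 under R 3.5.1. Counts were summed per gene, and those reaching a sum of 10 counts in a comparison were tested, like single transcripts, with edgeR 4.0.16 (TMM factors, quasi-likelihood, R 4.3.3), with p-values adjusted over all tested. Both arms of each comparison were fitted alone. Tables were made in Python 3.11.15. Alternatives were library totals, RLE factors, DESeq2 1.42.0, edgeR's filter, no filter, a joint fit, a replicate block, each library left out, and longest-transcript lengths. Adding the counts of near-identical genes and removing a Cnot1 transcript were chosen after seeing the data. Transcript types, coordinates and sequences came from GENCODE M21 (GRCm38), where the authors used M22 of the same build. It held 139921 of the 140658 transcripts and all 398 of the members. Values in every library were due for the members with the highest and lowest log2 fold change of each role in the p-UPF1 IP over input, for up to 10 enriched and 10 depleted members, and for up to 5 members per direction that passed in the rIgG IP over input. Other members are named as part of their role. A transcript was due if it was the most counted of such an enriched or depleted member, or its gene's most extreme with 10 counts in every library of a group. Not every transcript due is printed. The members and lists were chosen with earlier results of these data known. Depth was 25184464 to 29857955 counts in input, 79010 to 474491 in the rIgG IP and 5312526 to 6246110 in the p-UPF1 IP, and levels under 3 counts were not told from 0.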

Additional observations from a re-analysis of the deposited data

How the results depend on the processing

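Of the 15 members called higher in the p-UPF1 IP over input, 14 kept their call in every alternative, and of the 25 called lower, 17 did. With library totals 11 members were enriched and 8 depleted, beside 4108 and 3160 of all 16919 genes. When 1 library was left out, 14 to 16 members were higher, 24 to 25 lower, 6 to 9 enriched and 11 to 14 depleted. Of the 15682 to 16758 genes tested then, 4239 to 4336 were higher, 5339 to 5747 lower, 2858 to 2934 enriched and 3980 to 4346 depleted. Over the rIgG IP, 4 members were higher with DESeq2, RLE factors or edgeR's filter, 11 in the joint fit of 9 libraries, and 3 to 8 with 1 library left out. Of 12033 genes, 1214 were higher there with DESeq2, 1501 with RLE factors and 2383 in the joint fit. With edgeR's filter 1478 of 7774 genes were, and with 1 library left out 1309 to 2083 of 11262 to 12014. Lower members there numbered 4 with RLE factors, 5 with edgeR's filter, 6 with DESeq2, 3 with library totals, 3 in the joint fit and 1 to 2 with 1 library left out. In the rIgG IP over input, 1 member was lower with edgeR's filter and 1 with no filter, while leaving out 1 library gave 0 to 0 in either direction. Lower genes there numbered 168 of 11044 with edgeR's filter and 295 of 29954 with no filter. Members with an enriched transcript numbered 20 with DESeq2 and 13 to 15 with 1 library left out, and 22 to 32 had a depleted one. Genes with an enriched transcript numbered 4087 of 16469 with DESeq2. With 1 library left out, 2682 to 3047 of 15272 to 16328 genes had an enriched transcript and 3199 to 5305 a depleted one. The difference in NMD and retained-intron share was -5.88 to -4.57 points with 1 library left out, and -1.11 points with the Cnot1 transcript removed, an alternative chosen once the data had been seen. With longest-transcript lengths the median level per length was 1.48. Beyond that transcript, the cause was not tested.

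With library totals the log2 fold change of the p-UPF1 IP over input turned positive for Dcp2 (0.26), Lsm14b (0.35), Xrn2 (0.34), Exosc1 (0.33), Exosc7 (0.22), Exosc8 (0.10), Exosc9 (0.14), Dis3l (0.069), Tnrc6a (0.023), Tnrc6c (0.40) and Stau1 (0.24), because that scaling moved all genes by 0.41. Tnrc6c, at -0.01, also turned with DESeq2 (0.011), RLE factors (0.011), edgeR's filter (0.019) and the joint fit (0.020). Ranges with 1 library left out crossed 0 for Tnrc6c (-0.040 to 0.10), Lsm14b (-0.064 to 0.010), Xrn2 (-0.21 to 0.059), Exosc1 (-0.18 to 0.14) and Exosc9 (-0.39 to 0.010), and the cause was not tested.

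The labels give the libraries replicate numbers but do not say that equal numbers belong together. After group means were removed, libraries of equal number correlated across genes at -0.03 to 0.05. With a replicate block, 15 members were higher and 25 lower relative to input, and 4 were higher over the rIgG IP. Over all genes the block gave 4344 higher and 5724 lower of 16919, and 1368 higher of 12033 over the rIgG IP. With the replicate block 1 member had an enriched transcript and 6 a depleted one, in place of 13 and 29. Of 16469 genes 1004 and 1357 had one, in place of 3023 and 5503. Among the transcripts named, edgeR's adjusted p with the replicate block was 0.158 for Ago1, 0.110 for Ago3, 0.139 for Dcp1b, and 0.0678 and 0.0582 for the Exosc10 pair, so these calls were lost, while those of Tnrc6b and Cnot6l were kept.

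The limits are those of the libraries. The rIgG IP held so few counts that most members could not be followed there, and an absence of calls in it is not an absence of difference. Levels in the p-UPF1 IP are relative to all RNA recovered, so the point of no change depends on the scaling. Fragments of 25 to 50 nt cannot always be assigned to 1 transcript or to 1 of near-identical genes. PCR copies could not be removed. With 3 libraries per group, the exact test could not reach p under 0.1.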
